A study of Mus musculus with 10 samples.

Results

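This is an account of 34 p53 target genes in mouse liver after hepatocytes lost histone H3.3, chosen by name from a list of genes that p53 is known to induce, together with Trp53 itself. All 34 were found by gene name among the 55421 gene identifiers of the count table, each under a single identifier, and all 34 were among the 22449 genes tested. The livers of 10 male C57BL/6 mice were profiled whole, by RNA-seq of poly(A) RNA. H3.3 KO livers came from 4 mice whose H3f3a and H3f3b genes, which both encode H3.3, were floxed on both alleles and which received AAV8-Tbg-Cre. WT Cre controls were 3 wild-type mice given that same virus, and MCS controls were 3 floxed mice given AAV8-Tbg-MCS, a vector without Cre. Injection was at 6 months of age in all 10 mice, and tissue was collected 3 weeks afterwards. Floxed mice are labelled HIRA in the genotype field but H3f3a and H3f3b in the titles, which set the groups here. Tbg is a hepatocyte promoter, so the other cells of the liver kept H3.3, and in whole tissue fewer cells of a type and less RNA per cell cannot be told apart. The 2 kinds of control differ in the virus and in the genotype at once, and these cannot be told apart either.

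Total counts ran from 14998426 in KO liver 1 to 26096141 in MCS control 1. H3f3a was at 62.1 CPM (counts scaled to a common library size) in the 6 controls on average and at 17.4 ± 1.66 CPM (SD, n = 4) in KO livers, and H3f3b at 160.0 CPM and 50.5 ± 7.40, and both fell (adjusted p of 3.5e-08 and 3.62e-06), whereas Hira did not pass the test (log2 fold change of -0.14, adjusted p = 0.477). The control columns carry only a number and were matched to the kinds of control by library number, so every value given for WT Cre or MCS controls apart from each other rests on that match, and the comparison with all 6 controls does not. MCS control 3 stood apart for several members. It was the highest MCS control for 20 of 34 members, and its summed Kupffer cell markers were 587 CPM against 315 and 339 CPM in the other MCS controls. KO liver 1 was the highest KO liver for 16 members and KO liver 4 the lowest for 20. The order of livers was counted in the members only and not over all genes, so these counts may not be particular to the members.

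p53 is a transcription factor that is kept scarce by the ubiquitin ligase MDM2 and is stabilized after DNA damage, ribosomal stress or oncogene activation. It binds a response element made of a pair of similar short sites and switches on genes that hold the cell cycle, repair DNA, limit growth or start apoptosis, and also Mdm2, which closes a feedback loop. In the liver, p53 target genes are known to respond to toxic injury and to DNA damage in hepatocytes. RefSeq promoter windows (build GRCm38.p6) of 26 members were searched for the p53 response element in the 250 bases before each transcription start, with 2 such sites of 10 bases without a spacer, up to 3 mismatches in 20 bases and the central C and G of each site fixed. The element reads alike on both strands, so both were covered. It was found in 7 of the 26 members (26.9%) and in 367 of the 27025 genes with a window (1.36%). Perp, Trp53inp1, Zmat3, Tnfrsf10b, Xpc, Rrm2b, Ddb2 and Pmaip1 were not searched. The 3 closest matches, with 1 mismatch each, are printed with that of Aen, which was the only member with a match that was called between the kinds of control. Capitals mark the 20 bases of the match, and each runs 5′ to 3′ on the strand of its gene.
Cdkn1a, chr17:29090923-29090952, plus strand: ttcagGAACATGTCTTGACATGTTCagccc
Ccng1, chr11:40755457-40755486, minus strand: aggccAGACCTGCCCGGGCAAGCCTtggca
Rps27l, chr9:66946291-66946320, plus strand: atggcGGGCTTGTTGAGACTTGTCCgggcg
Aen, chr7:78895932-78895961, plus strand: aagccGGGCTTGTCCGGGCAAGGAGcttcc
By the GENCODE M21 annotation of the same build, the Cdkn1a match ended 29 bases before the start of the gene and the Ccng1 match 151 bases before it. The Rps27l match lay in an intron of a longer transcript of Rps27l and the Aen match in an exon of a longer transcript of Aen. Bbc3, Sesn1 and Trp53 held a match with 3 mismatches. Such a match is a description of the letters and not a measured binding site.

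More p53 target genes were higher than lower in H3.3 KO livers. Against all 6 controls, 14 of 34 rose (41.2%) at an adjusted p under 0.05, when 19.7% of all genes tested rose. Without KO liver 3 the count was 9, when 16.7% of genes tested rose. The 14 were Apaf1, Bax, Cdkn1a, Ddit4, Gdf15, Gtse1, Plk2, Plk3, Pmaip1, Polk, Psrc1, Sesn2, Tnfrsf10b and Trp53inp1. In 12 of them, all but Bax and Ddit4, the change was over 1 on the log2 scale (35.3%, against 12.9% of genes tested). Only Ei24 and Perp fell, when 16.6% of genes tested fell. The median log2 fold change of the members was 0.53 and that of all genes tested was -0.003. In 14 members every KO liver was above every control, as in 12.5% of genes tested, and in 2, Ei24 and Xpc, every KO liver was below every control, as in 12% of genes tested. The former 14 are not the called 14: Eda2r and Pidd1 were among them without a call, and Ddit4 and Plk3 were called although groups overlapped.

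**Figure D1:**
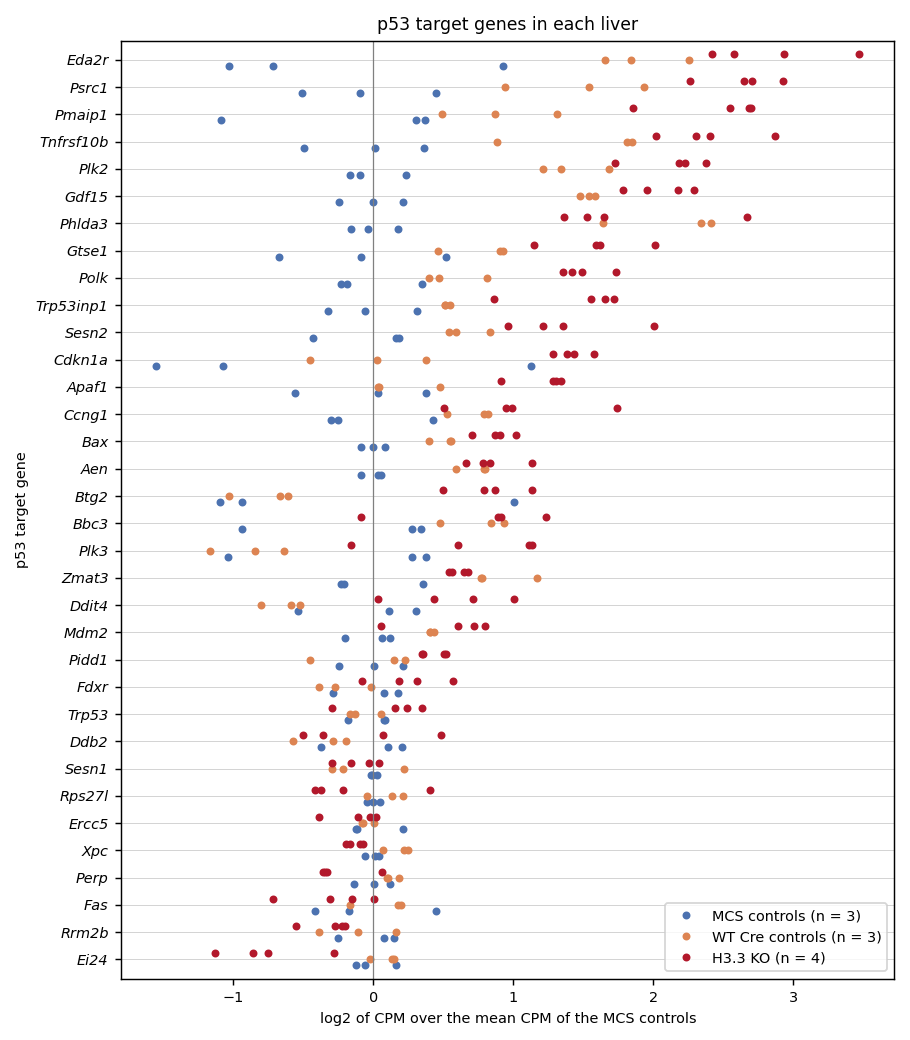
Level of each of the 34 p53 target genes, with 1 point per liver. Values are the log2 of CPM over the mean CPM of the 3 MCS controls. Genes are ordered by the log2 fold change of KO against MCS controls. Eda2r, Psrc1 and Pmaip1 head the order, WT Cre controls lie between the other groups for many genes at the top, and Ei24 lies lowest in KO livers.

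Against either kind of control apart, 18 members were called. Of the 34 members, 15 rose against WT Cre controls (44.1%, against 15.3% of genes tested) and 17 rose against MCS controls (50%, against 17.3%). The count of 15 fell to 6, 8 and 9 without WT Cre control 1, 2 and 3. Of all genes tested, 10.7%, 10.5% and 10.6% rose in those fits. The count of 17 ran from 14 to 20 on leaving out a liver, when 12.3% to 20.9% of genes tested rose. Against WT Cre controls 3 members fell, Ei24, Perp and Xpc (13.1% of genes tested fell), and against MCS controls only Ei24 fell (14.8% of genes tested fell). The median log2 fold change was 0.41 against WT Cre and 0.82 against MCS controls, with 0.02 and 0.01 over all genes tested. These comparisons share the KO livers and are therefore not independent. The members that rose against both kinds of control were Apaf1, Bax, Gdf15, Gtse1, Plk2, Pmaip1, Polk, Psrc1, Sesn2, Tnfrsf10b and Trp53inp1. The share of all genes tested that rose against both was not counted. Btg2, Ddit4, Fdxr and Plk3 rose against WT Cre controls and did not pass against MCS controls, and for Aen, Ccng1, Eda2r, Mdm2, Phlda3 and Zmat3 it was the other way round. Without MCS control 3, Btg2 and Ddit4 rose against MCS controls as well and Eda2r against WT Cre controls. The test of whether a gene's effects differ between the kinds of control is the comparison of those controls. It called Aen, Phlda3 and Zmat3 of these 10 genes.

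The kinds of control differed in several p53 target genes, whereas few genes as a whole did. Between WT Cre and MCS controls, 5 of 34 members were higher in WT Cre controls (14.7%), namely Aen, Gdf15, Phlda3, Plk2 and Zmat3, when 0.441% of genes tested were higher and 0.486% lower. By edgeR 0 members were lower (1 at an unadjusted p under 0.05), and 0 by DESeq2 and limma-voom. In 17 members (50%) every WT Cre control was above every MCS control, as in 11% of genes tested. The median log2 fold change of the members was 0.31 and that of all genes 0.00. In 10 members (29.4%) the 3 groups followed each other without overlap, with MCS controls lowest and KO livers highest: Bax, Eda2r, Gdf15, Plk2, Pmaip1, Polk, Psrc1, Sesn2, Tnfrsf10b and Trp53inp1. That order held in 1.96% of genes tested. The count of 5 fell to 2 without WT Cre control 2, without WT Cre control 3 or without MCS control 2, and to 3 without WT Cre control 1 or without MCS control 1. With 1 of those livers left out, 0.172% to 0.276% of genes tested were higher, in place of 0.441%. Gdf15 and Plk2 were called under each of the 19 alternatives run.

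**Figure D2:**
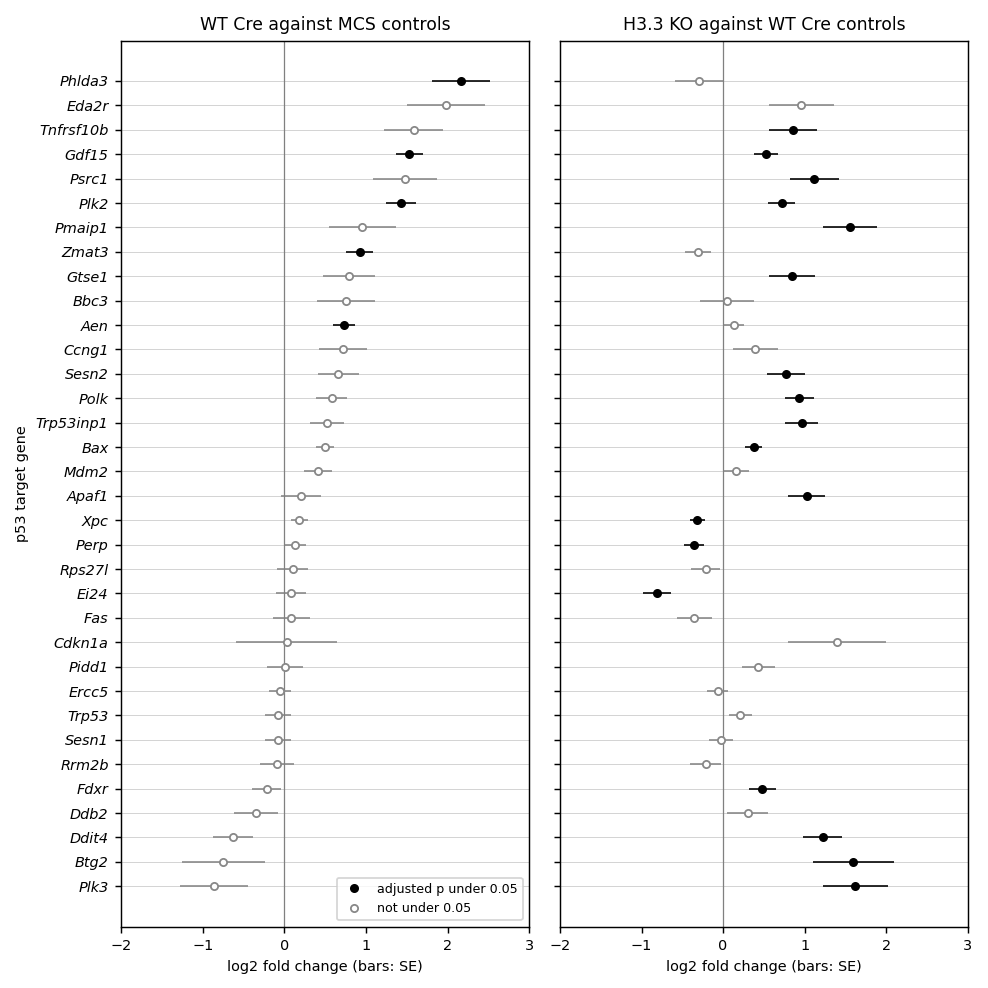
Log2 fold change of each p53 target gene with its SE, in WT Cre against MCS controls (left) and in KO against WT Cre controls (right), from edgeR; filled points have an adjusted p under 0.05. Phlda3 and Zmat3 were higher in WT Cre controls and had values below 0 in the panel on the right, whereas Gdf15 and Plk2 were called in both.

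The 5 genes that separated the controls have different roles. Gdf15 encodes a secreted factor of the TGF-beta family that rises in stressed tissues and lowers appetite. It stood at 13.3, 13.9 and 14.3 CPM in WT Cre controls, at 4.76, 5.54 and 4.02 CPM in MCS controls and at 21.6, 18.5, 23.4 and 16.4 CPM in KO livers. The 3 groups did not overlap, and WT Cre controls were 2.89-fold above MCS controls (log2 fold change of 1.53 ± 0.16 SE, adjusted p = 0.00117). KO livers were 1.44-fold above WT Cre controls (adjusted p = 0.0178) and 4.16-fold above MCS controls (adjusted p = 5e-06). The call against WT Cre controls was lost without WT Cre control 1, WT Cre control 2 or KO liver 3 (adjusted p of 0.0695, 0.0579 and 0.0545). The call against all controls (log2 fold change of 1.095 ± 0.38, adjusted p = 0.047) was lost without any 1 KO liver or MCS control (adjusted p of 0.0535 to 0.108). It was also lost with all livers kept, under no filter on low counts and under the replicate block (adjusted p of 0.105 and 0.156).

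Plk2, which encodes a polo-like kinase induced by stress, had the same order of groups. It was at 29.1, 26.6 and 36.9 CPM in WT Cre controls, at 10.8, 10.2 and 13.5 CPM in MCS controls and at 59.5, 52.3, 53.8 and 38.0 CPM in KO livers. KO liver 4 was close to WT Cre control 3, yet no value overlapped. The log2 fold change was 1.43 ± 0.18 between the controls (adjusted p = 0.00246), 0.72 ± 0.17 in KO against WT Cre controls (adjusted p = 0.00717) and 2.15 ± 0.18 against MCS controls (adjusted p = 8.24e-06). Against all controls together it was 1.26 ± 0.38 (adjusted p = 0.027), and that call was lost without KO liver 1, 2 or 3 (adjusted p of 0.0648, 0.0586 and 0.0605). Plk2 also lost it with all livers kept, under no filter on low counts and under the replicate block (adjusted p of 0.0612 and 0.0921).

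Phlda3, which encodes a pleckstrin homology protein that restrains AKT, Zmat3, an RNA-binding zinc finger protein, and Aen, a nuclease that p53 induces, were higher in WT Cre than in MCS controls and did not pass in KO against WT Cre controls. Phlda3 stood at 4.83, 7.85 and 8.26 CPM in WT Cre controls, at 1.75, 1.38 and 1.51 CPM in MCS controls and at 9.84, 4.47, 4.85 and 3.98 CPM in KO livers. KO liver 1 was high among the KO livers, and the other KO livers lay near or below the lowest WT Cre control. The log2 fold change between the controls was 2.17 ± 0.35 (adjusted p = 0.0127) and that of KO against WT Cre controls was -0.29 ± 0.30 (adjusted p = 0.509). Without KO liver 1 the latter passed the test in the lower direction (adjusted p = 0.0235). The call between the controls was lost without WT Cre control 2 or 3 or MCS control 2 or 3 (adjusted p of 0.0564, 0.0718, 0.0786 and 0.0733). Limma on log2(FPKM + 1) with all livers did not make that call either (adjusted p = 0.0608).

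Zmat3 was at 18.0, 18.0 and 23.7 CPM in WT Cre controls, at 9.12, 8.97 and 13.5 CPM in MCS controls and at 16.8, 15.3, 15.6 and 16.5 CPM in KO livers. Every KO liver lay between the controls of either kind. Its log2 fold change was 0.92 ± 0.17 between the controls (adjusted p = 0.0244), -0.31 ± 0.16 in KO against WT Cre (adjusted p = 0.16) and 0.61 ± 0.16 against MCS controls (adjusted p = 0.0121). Without any 1 of WT Cre controls 1 to 3 or of MCS controls 1 and 2, the adjusted p between the controls was 0.0612 to 0.143, and without MCS control 1 or 2 that of KO against MCS controls was 0.0639 and 0.0658. Limma on log2(FPKM + 1) with all livers did not call Zmat3 between the controls either (adjusted p = 0.0608). Aen was at 20.9, 24.0 and 24.1 CPM in WT Cre controls, at 13.0, 14.4 and 14.2 CPM in MCS controls and at 30.5, 23.9, 24.7 and 21.9 CPM in KO livers. The controls did not overlap and KO livers overlapped WT Cre controls. For Aen the log2 fold change was 0.73 ± 0.13 between the controls (adjusted p = 0.0235), which was lost on leaving out any 1 control (adjusted p of 0.0522 to 0.123), and 0.13 ± 0.12 in KO against WT Cre controls (adjusted p = 0.457). Against all controls Aen did not pass (adjusted p = 0.0798), but did without WT Cre control 2 or 3 (adjusted p of 0.0415 and 0.0396). It also passed with libraries scaled by size only (adjusted p = 0.0431).

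**Figure D3:**
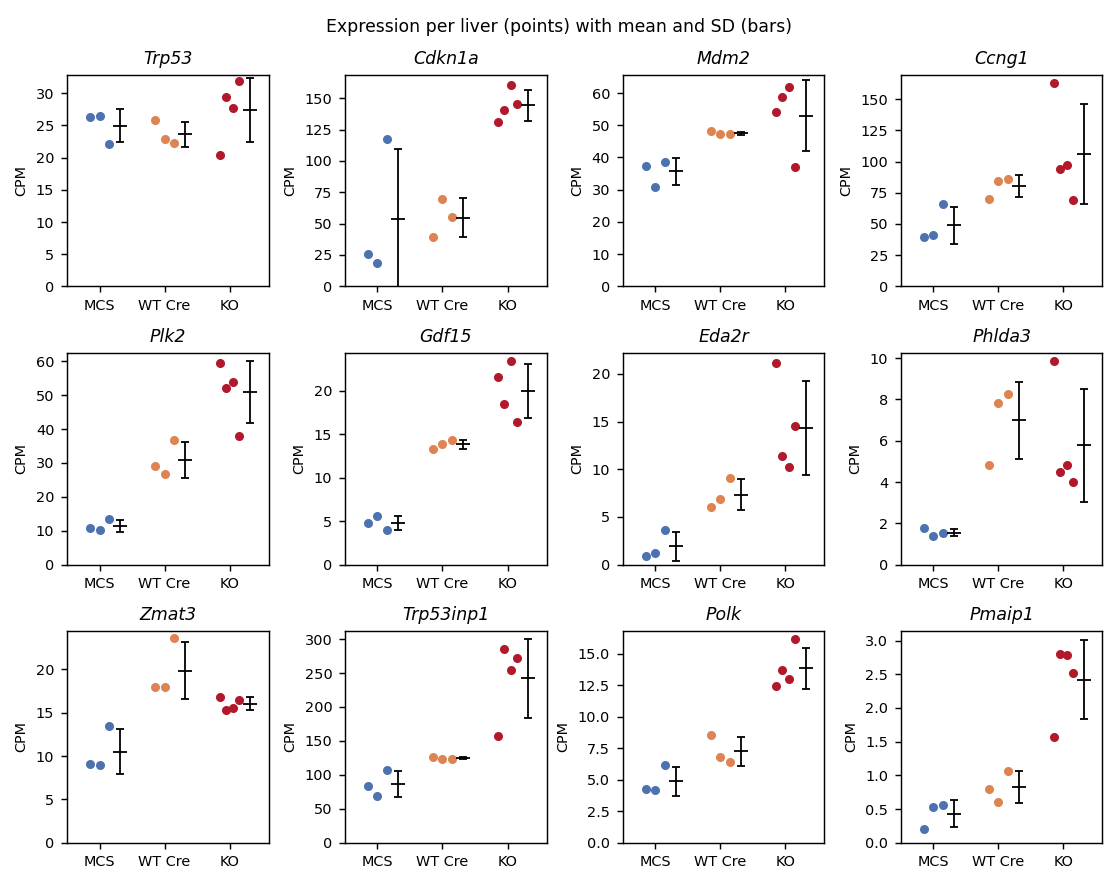
CPM of 12 p53 target genes in each liver (points) with the mean and SD of each group (horizontal and vertical bars; the SD bar of Cdkn1a in MCS controls is clipped at 0). MCS control 3 stands at 118 CPM for Cdkn1a against 25.7 and 18.4 CPM in the other MCS controls, and the groups of Gdf15 and Plk2 do not overlap.

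Trp53 RNA itself did not pass the test in any comparison. It stood at 25.9, 22.8 and 22.3 CPM in WT Cre controls, at 26.3, 26.5 and 22.1 CPM in MCS controls and at 20.4, 29.5, 27.8 and 31.9 CPM in KO livers. KO liver 1 was the lowest of all 10 livers and the other KO livers were the highest. The log2 fold change against all controls was 0.17 ± 0.12 (adjusted p = 0.293), and without KO liver 1 it passed (adjusted p = 0.0274, and 0.0311 against WT Cre controls). p53 is controlled mainly as a protein, which was not measured here.

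Mdm2, the ubiquitin ligase that p53 induces and that degrades it, was at 48.1, 47.2 and 47.2 CPM in WT Cre controls, at 37.3, 31.0 and 38.7 CPM in MCS controls and at 54.1, 58.8, 62.0 and 37.1 CPM in KO livers. KO liver 4 was within the MCS controls, whereas the other KO livers were above every control. Mdm2 rose against MCS controls (log2 fold change of 0.57 ± 0.16, adjusted p = 0.0153, and 0.0785 without MCS control 2). It did not pass against WT Cre controls (0.16 ± 0.16, adjusted p = 0.485) or against all controls (0.35 ± 0.16, adjusted p = 0.095). Without KO liver 4 the latter was called (adjusted p = 0.0167). With all livers kept, library size only and the replicate block called it too (adjusted p of 0.032 and 0.0242). Trp53inp1, which encodes a stress protein of autophagy and cell death, rose in every comparison of KO livers. Its CPM was 126, 124 and 123 in WT Cre controls, 83.2, 69.0 and 107 in MCS controls and 157, 285, 254 and 272 in KO livers, without overlap. KO liver 1 was the lowest KO liver, and the log2 fold change was 1.20 ± 0.20 against all (adjusted p = 0.000573), 0.96 ± 0.20 against WT Cre (adjusted p = 0.00401) and 1.49 ± 0.20 against MCS controls (adjusted p = 0.00026).

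Of 8 members that act on the cell cycle, 5 rose against all controls, when 19.7% of all genes tested rose. The other members of this group had log2 fold changes above 0. Cdkn1a encodes p21, the inhibitor of cyclin-dependent kinases through which p53 holds the cell cycle. It was at 39.4, 70.0 and 55.1 CPM in WT Cre controls, at 25.7, 18.4 and 118 CPM in MCS controls and at 131, 140, 161 and 146 CPM in KO livers. Every KO liver was above every control, and MCS control 3 was far above the other MCS controls. The log2 fold change against all controls was 1.41 ± 0.45 (adjusted p = 0.0363). That call was lost without WT Cre control 1 or 3, MCS control 1 or any 1 KO liver (adjusted p of 0.0552 to 0.0824). Cdkn1a also lost it with all livers kept, under no filter on low counts and under the replicate block (adjusted p of 0.0713 and 0.0668). Against each kind of control apart it did not pass (1.40 ± 0.60, adjusted p = 0.119, against WT Cre and 1.43 ± 0.60, adjusted p = 0.107, against MCS controls). With all livers kept, limma-voom and limma on both FPKM scales called it against WT Cre (adjusted p of 0.0362 to 0.0472) and against MCS controls (adjusted p of 0.00894 to 0.0108), and DESeq2 did not (adjusted p of 0.0749 and 0.066). Without MCS control 3, KO livers were higher than MCS controls by 2.71 (adjusted p = 6.33e-05) and than WT Cre controls by the same 1.40 as with it (adjusted p = 0.000507), and WT Cre controls were higher than MCS controls by 1.31 (adjusted p = 0.0389), where with it that difference was 0.03 (adjusted p = 0.998). Cdkn1a shares exon bases with AC167363.2 on the other strand.

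Btg2, an antiproliferative gene that also answers growth factors quickly, and Plk3, a stress polo-like kinase, were both highest among MCS controls in MCS control 3. Btg2 was at 8.65 to 11.6 CPM in WT Cre controls, at 8.30, 9.24 and 35.5 CPM in MCS controls and at 25.0 to 38.9 CPM in KO livers. It rose against WT Cre controls (log2 fold change of 1.60 ± 0.49, adjusted p = 0.0406), a call lost without any 1 WT Cre control or KO liver (adjusted p of 0.0529 to 0.12). Btg2 also lost that call with all livers kept, under no filter on low counts and under the replicate block (adjusted p of 0.0913 and 0.112). Against all controls it did not pass (1.18 ± 0.42, adjusted p = 0.0531), and without MCS control 3 it did (adjusted p = 1.03e-05). DESeq2, limma-voom, library size only, filterByExpr and limma on both FPKM scales also called it with all livers (adjusted p of 0.00348 to 0.0313). Against MCS controls it did not pass (0.85, adjusted p = 0.212), but without MCS control 3 it rose by 1.85 (adjusted p = 0.00015), and with all livers limma-voom and limma on both FPKM scales called it (adjusted p of 0.0282 to 0.0332). Plk3 was at 45.1, 52.2 and 36.2 CPM in WT Cre controls, at 39.5, 98.4 and 105 CPM in MCS controls and at 72.5, 175, 178 and 123 CPM in KO livers. Here 2 of 3 MCS controls lay above KO liver 1. Plk3 rose by 1.13 ± 0.38 against all controls (adjusted p = 0.0412) and by 1.62 ± 0.40 against WT Cre controls (adjusted p = 0.0161), but did not pass against MCS controls (0.76 ± 0.39, adjusted p = 0.172). The call against all was lost without any 1 WT Cre control, without MCS control 1 or without KO liver 2, 3 or 4 (adjusted p of 0.0576 to 0.0982), and that against WT Cre without WT Cre control 1 or 3 (adjusted p of 0.0513 and 0.0549). No filter on low counts and the replicate block also lost the call against all, with all livers kept (adjusted p of 0.0816 and 0.0565). Plk3 shares exon bases with Tctex1d4 on the other strand, and the strand setting of the counting was not stated.

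Gtse1, which encodes a microtubule-associated protein of the late cell cycle that binds p53, and Psrc1, a spindle protein, were low and rose. Gtse1 was at 1.67, 2.30 and 2.26 CPM in WT Cre controls, at 1.14, 0.759 and 1.73 CPM in MCS controls and at 3.65, 3.72, 4.89 and 2.68 CPM in KO livers. Its log2 fold change against all controls was 1.18 ± 0.28 (adjusted p = 0.00519), and KO livers did not overlap controls. Psrc1 was at 0.459, 0.694 and 0.913 CPM in WT Cre controls, at 0.326, 0.223 and 0.168 CPM in MCS controls and at 1.499, 1.82, 1.56 and 1.15 CPM in KO livers. The 3 groups were in steps without overlap, and Psrc1 rose by 1.66 ± 0.37 against all (adjusted p = 0.0035), by 1.12 ± 0.30 against WT Cre (adjusted p = 0.0158) and by 2.597 ± 0.36 against MCS controls (adjusted p = 0.000256). Against WT Cre controls alone the call of Gtse1 (0.84 ± 0.28, adjusted p = 0.0395) was lost without any 1 WT Cre control, without MCS control 1 or without KO liver 2 or 3 (adjusted p of 0.054 to 0.147), and that of Psrc1 without WT Cre control 1 or 2 (adjusted p of 0.074 and 0.0539). Limma on log2(FPKM + 0.1) did not call Gtse1 against WT Cre controls either (adjusted p = 0.067). Ccng1, which encodes cyclin G1, a p53 target that takes part in the control of MDM2, was at 70.3 to 86.1 CPM in WT Cre controls, 39.6 to 65.6 CPM in MCS controls and 69.1 to 163 CPM in KO livers. It rose against MCS controls only (1.12 ± 0.28, adjusted p = 0.0125), which was lost without MCS control 1 or 2 (adjusted p of 0.0531 and 0.0543). Against all controls Ccng1 did not pass (0.71 ± 0.28, adjusted p = 0.0724). With all livers kept, DESeq2, library size only and limma on both FPKM scales called it there (adjusted p of 0.0321 to 0.0462).

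Of 11 members that start or carry out apoptosis, 4 rose and 2 fell against all controls, when 19.7% and 16.6% of genes tested did. Bax, Pmaip1 and Bbc3 encode proteins of the BCL2 family that permeabilize mitochondria or release those that do. Pmaip1, or NOXA, was at 0.792, 0.607 and 1.07 CPM in WT Cre controls, at 0.203, 0.536 and 0.559 CPM in MCS controls and at 1.56, 2.81, 2.78 and 2.52 CPM in KO livers. Its groups did not overlap, and the log2 fold change of 1.94 ± 0.32 against all controls (adjusted p = 0.000534) was the largest of the 34 members, at a level under 3 CPM. Bax was at 29.7 to 33.1 CPM in WT Cre controls, 21.2 to 23.9 CPM in MCS controls and 36.8 to 45.6 CPM in KO livers. It rose by 0.60 ± 0.14 against all controls (adjusted p = 0.00394), by 0.88 ± 0.11 against MCS controls (adjusted p = 0.000108) and by 0.38 ± 0.10 against WT Cre controls (adjusted p = 0.0171, and 0.0793 without WT Cre control 1). Between the controls Bax did not pass (0.50, adjusted p = 0.0593), but did without KO liver 1 or 4 (adjusted p of 0.0177 and 0.0244) and by DESeq2 (adjusted p = 0.00205). It shares exon bases with Gm45808 on the same strand, so its counts are uncertain. Bbc3, or PUMA, was at 5.85 to 14.6 CPM in KO livers and 3.24 to 11.8 CPM in controls and did not pass in any comparison (0.37 ± 0.33 against all controls, adjusted p = 0.412).

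Apaf1, the scaffold of the apoptosome that activates caspase-9, was at 2.71, 2.69 and 3.65 CPM in WT Cre controls, at 2.69, 1.79 and 3.41 CPM in MCS controls and at 4.95, 6.49, 6.41 and 6.66 CPM in KO livers. It rose by 1.12 ± 0.19 against all controls (adjusted p = 0.00053, and 0.0602 on log2(FPKM + 0.1)), and the kinds of control overlapped. Against WT Cre controls Apaf1 rose by 1.02 (adjusted p = 0.00552), but limma on the FPKM scales did not call it (0.32 and 0.59, adjusted p of 0.214 and 0.264). Pidd1, a scaffold for caspase-2, was higher in every KO liver (3.64 to 4.09 CPM) than in every control (2.08 to 3.33 CPM) but did not pass (0.43 ± 0.17, adjusted p = 0.058). That value passed without WT Cre control 3 or MCS control 3 (adjusted p of 0.0476 and 0.0451), and under 7 of the alternatives that kept all livers (adjusted p of 0.0155 to 0.0497).

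Of the 3 receptors on this list, only Tnfrsf10b passed against all controls. Tnfrsf10b, the death receptor for TRAIL in mice, was at 1.04, 2.04 and 1.99 CPM in WT Cre controls, at 0.570, 0.402 and 0.727 CPM in MCS controls and at 2.80, 3.00, 4.13 and 2.29 CPM in KO livers. It followed the 3 steps without overlap and rose by 1.43 ± 0.40 against all controls (adjusted p = 0.0138, and 0.0517 without KO liver 3), by 2.44 ± 0.34 against MCS controls (adjusted p = 0.000262) and by 0.86 ± 0.29 against WT Cre controls (adjusted p = 0.0446). The last call was lost without any 1 WT Cre control, MCS control 1 or 2, or KO liver 2 or 3 (adjusted p of 0.0504 to 0.17). Its difference of 1.58 between the controls did not pass (adjusted p = 0.0656), but did without KO liver 1 or 4 (adjusted p of 0.0394 and 0.0406) and by DESeq2 (adjusted p = 0.00536). Tnfrsf10b has a near-identical stretch in the predicted gene Gm15574, so its counts are uncertain. Eda2r, the receptor of ectodysplasin A2, was at 6.00 to 9.13 CPM in WT Cre controls, at 0.936, 1.16 and 3.63 CPM in MCS controls and at 10.2 to 21.2 CPM in KO livers. It also followed the 3 steps, with the largest log2 fold change against MCS controls of all members (2.94 ± 0.46, adjusted p = 0.0012), while against all controls it did not pass (1.62 ± 0.58, adjusted p = 0.0533, and 0.029 without WT Cre control 3). Without MCS control 3 it passed against WT Cre controls (adjusted p = 0.0163) and between the controls (adjusted p = 0.00853). Against all controls, DESeq2, limma-voom, library size only, filterByExpr and both FPKM scales called Eda2r with all livers (adjusted p of 0.00852 to 0.0483). Fas, the receptor of FAS ligand, was at 11.2 to 18.4 CPM in KO livers and 13.8 to 25.0 CPM in controls (-0.31 ± 0.18, adjusted p = 0.188).

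Ei24 and Perp were the members that fell. Ei24 encodes a membrane protein of the endoplasmic reticulum that takes part in autophagy, and stood at 265 to 299 CPM in WT Cre controls, 248 to 302 CPM in MCS controls and 123 to 222 CPM in KO livers, without overlap. It fell by 0.77 on the log2 scale against all controls (SE of 0.15, adjusted p = 0.00148) and was called lower against both kinds of control. Its value of 0.09 ± 0.18 between the controls did not pass (adjusted p = 0.933). It shares exon bases with Gm26787 on the other strand. Perp, a membrane protein of cell junctions, fell by 0.30 (SE of 0.11, adjusted p = 0.0476). In KO liver 1 it was at 125 CPM, within the controls (109 to 136 CPM), and the other KO livers at 93.6 to 95.5 CPM. The call was lost in 15 of the 19 alternatives. These were the fits without any 1 WT Cre control, without MCS control 1 or 2 or without KO liver 2, 3 or 4 (adjusted p of 0.0636 to 0.167). With all livers kept they were RLE, library size only, no filter on low counts, filterByExpr, both FPKM scales and the replicate block (adjusted p of 0.052 to 0.532). Against WT Cre controls Perp was also called lower (-0.36, adjusted p = 0.0444), which was lost on leaving out any 1 liver but MCS control 3 and KO liver 1 (adjusted p of 0.0553 to 0.151). Perp lost that call in 14 of the 19 alternatives, among them RLE, library size only and both FPKM scales (adjusted p of 0.0615 to 0.14). Against MCS controls it did not pass (-0.23, adjusted p = 0.176), but did without KO liver 1 (-0.34, adjusted p = 0.00992).

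Of the 5 DNA repair members 1 rose, Polk, when 19.7% of all genes tested rose. Polk encodes polymerase kappa, which copies past damaged bases, and was at 8.54, 6.77 and 6.43 CPM in WT Cre controls, at 4.27, 4.15 and 6.20 CPM in MCS controls and at 12.4, 13.7, 13.0 and 16.2 CPM in KO livers. Its groups did not overlap and the log2 fold change was 1.19 ± 0.19 against all controls (adjusted p = 0.000319), 0.94 ± 0.18 against WT Cre (adjusted p = 0.00217) and 1.51 ± 0.18 against MCS controls (adjusted p = 0.000108). Xpc, which recognizes bulky lesions for nucleotide excision repair, was at 16.9 to 18.3 CPM in KO livers and 18.6 to 22.9 CPM in controls. It did not pass against all controls (-0.23 ± 0.09, adjusted p = 0.0673, and 0.0428 without MCS control 3). It fell against WT Cre controls by 0.31 (adjusted p = 0.0291), which was lost without WT Cre control 1 or 3 or KO liver 2 or 3 (adjusted p of 0.0531 to 0.107). That call was also lost with all livers under library size only, no filter on low counts, both FPKM scales and the replicate block (adjusted p of 0.0539 to 0.255).

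Ddb2, another sensor of lesions, Ercc5, the nuclease XPG of that pathway, and Rrm2b, a ribonucleotide reductase subunit for repair, did not pass in any comparison. Their log2 fold changes against all controls were 0.12 ± 0.22, -0.09 ± 0.11 and -0.26 ± 0.16 (adjusted p of 0.701, 0.542 and 0.239). Ddb2 was at 2.87 to 5.67 CPM in KO livers and 2.73 to 4.68 CPM in controls. Rrm2b has a near-identical stretch in the predicted gene Gm8616 and shares exon bases with Gm49085, and Ddb2 shares exon bases with Acp2, so the counts of both are uncertain. Of 14 other genes of nucleotide excision repair, 1 rose and 5 fell against all controls, when 19.7% and 16.6% of genes tested did. Their median log2 fold change was -0.17.

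Of 6 members of stress metabolism and secretion, Gdf15, Sesn2 and Ddit4 rose against all controls, when 19.7% of all genes tested rose. Sesn2 encodes a sestrin that restrains mTORC1 when amino acids are short, and was at 12.2, 12.7 and 15 CPM in WT Cre controls, at 9.40, 6.25 and 9.56 CPM in MCS controls and at 33.8, 21.5, 19.4 and 16.4 CPM in KO livers. The groups did not overlap, and KO liver 1 was the highest. Sesn2 rose on the log2 scale by 1.06 ± 0.24 against all (adjusted p = 0.00542), 1.43 ± 0.24 against MCS (adjusted p = 0.00108) and 0.77 ± 0.23 against WT Cre controls (adjusted p = 0.0281), the last being lost without any 1 WT Cre control or KO liver 2 (adjusted p of 0.0526 to 0.0995). Its paralog on the list, Sesn1, had a log2 fold change of -0.07 ± 0.12 (adjusted p = 0.717).

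Ddit4, or REDD1, another brake on mTORC1, was at 11.8 to 14.3 CPM in WT Cre controls, 14.1 to 25.3 CPM in MCS controls and 21.1 to 41.1 CPM in KO livers. It rose by 0.88 ± 0.24 against all controls (adjusted p = 0.0146, and 0.0534 without KO liver 4) and by 1.22 ± 0.24 against WT Cre controls (adjusted p = 0.00346), but did not pass against MCS controls (0.59 ± 0.23, adjusted p = 0.0737), where it passed without MCS control 3 or KO liver 1 (adjusted p of 0.0497 and 0.0158). The replicate block lost the call of Ddit4 against all controls (adjusted p = 0.0859). Library size only and limma on both FPKM scales called Ddit4 against MCS controls (adjusted p of 0.0181 to 0.0322). Fdxr, a reductase of mitochondrial iron-sulfur cluster and steroid synthesis, rose against WT Cre controls (0.48 ± 0.17, adjusted p = 0.0458), which was lost on leaving out any 1 liver but MCS control 3 and KO liver 4 (adjusted p of 0.0501 to 0.16). Limma-voom with all livers did not call it there (adjusted p = 0.0591). Against all controls Fdxr did not pass (0.37 ± 0.14, adjusted p = 0.058, and 0.0364 without MCS control 2 and 0.0192 without KO liver 4). With all livers kept, each alternative but limma-voom called Fdxr against all controls (adjusted p of 0.00599 to 0.0468). Rps27l, a ribosomal protein related to Rps27, had a log2 fold change of -0.16 ± 0.15 (adjusted p = 0.432). In KO liver 1 it was at 239 CPM and the other KO livers at 135 to 155 CPM, and without KO liver 1 Rps27l passed in the lower direction (adjusted p = 0.00599).

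Per length, the members spanned a wide range of levels. In the deposited FPKM values (fragments scaled to transcript length and library size), Rps27l was highest at 368 ± 101 (SD, n = 4) in KO livers and 316 ± 14.9 (n = 3) in MCS controls. The MCS controls had Ei24 at 94.8 ± 6.32, Perp at 46.2 ± 6.01 and Bax at 21.9 ± 2.07 FPKM next, and neighbours in that order from Bax on were often within their SD. Cdkn1a ranked 6 of 34 in MCS controls, at 20.8 ± 20.3 FPKM, but 10 of 34 without MCS control 3, at 10.6 and 7.53 FPKM in the other MCS controls against 44.2 FPKM in that liver. It ranked 2 of 34 in KO livers, at 70.4 ± 7.65 FPKM, where Ei24 at 67.9 ± 15.4 FPKM did not differ from it beyond the spread. Plk2 ranked 19 and 11, and Gdf15 21 and 15. Pmaip1, Tnfrsf10b and Rrm2b were at the low end in KO livers, at 0.877, 0.841 and 0.749 FPKM. Among livers of a group, the median over members of the highest CPM divided by the lowest was 1.58 in KO livers, 1.31 in WT Cre controls and 1.495 in MCS controls, and the widest was Cdkn1a in MCS controls at 6.39.

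Other genes of the p53 pathway were counted in the same fits. For the counts against all controls, 19.7% of all genes tested rose and 16.6% fell. Among 22 regulators of p53, 4 rose and 2 fell, a share of higher genes near that of all genes, and 0 were called between the controls by edgeR, DESeq2 or limma-voom (5 at an unadjusted p under 0.05). The transcripts that rose included Chek1, a checkpoint kinase (log2 fold change of 1.15, adjusted p = 0.00503), while Mdm4, an inhibitor of p53, did not pass (0.32, adjusted p = 0.06). Of 35 further genes given as p53 targets, 14 rose and 5 fell, with a median of 0.33. Among them Tigar, a regulator of glycolysis, rose by 0.43 on the log2 scale (adjusted p = 0.0268). Between the kinds of control, Ephx1, a liver epoxide hydrolase, was the only further target called, at 1215 CPM in WT Cre and 550 CPM in MCS controls (adjusted p = 0.0322). Of 16 other genes of the apoptosis machinery 7 rose and 0 fell (0 also by DESeq2, and 0 at an unadjusted p under 0.05 by edgeR), among them Bcl2l11 or BIM (1.30, adjusted p = 0.00145) and the survival gene Mcl1 (0.65, adjusted p = 0.00323).

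Paralogs of the members moved both ways. Of 19 tested, 7 rose and 3 fell against all controls, when 19.7% and 16.6% of genes tested did. Phlda2 went from 0.162 CPM in controls to 6.55 ± 2.53 CPM in KO livers (5.26, adjusted p = 2.23e-06), and the lowest value, that of Phlda1, did not pass (-1.42, adjusted p = 0.0699). Genes of the cell cycle that p21 and the DREAM complex hold down were mostly higher: 24 of 28 rose against all controls and 0 fell (0 also by DESeq2, and 0 at an unadjusted p under 0.05 by edgeR), with a median of 1.32. Mki67 went from 2.26 to 10.7 ± 3.33 CPM (2.24, adjusted p = 6.42e-05). Between the controls, 1 of the 28, Mcm2, was higher in WT Cre controls (1.15, adjusted p = 0.0183). Of 13 immediate early genes, 7 rose and 1 fell, and their sum was 273 and 277 CPM in MCS controls 2 and 3 against 200 CPM in MCS control 1. Of 19 genes of the ATF4 stress pathway, which include the members Ddit4, Gdf15 and Sesn2, 10 rose and 3 fell, and Chac1 fell by 4.09 (adjusted p = 0.000499).

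**Figure D4:**
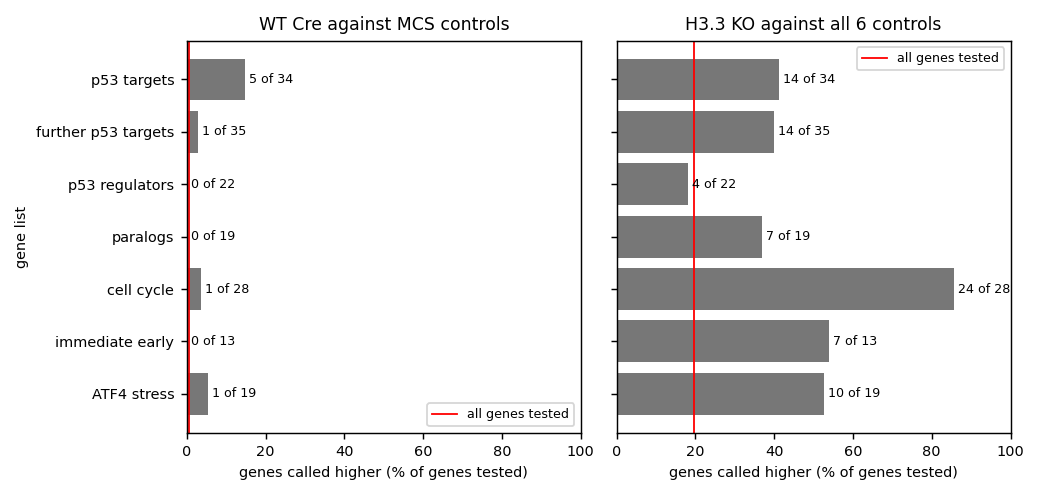
Share of each gene list called higher at an adjusted p under 0.05, in WT Cre against MCS controls (left) and KO against all 6 controls (right), with counts beside the bars and the share of all genes tested as a red line. The p53 target genes stand at 5 of 34 and 14 of 34, and the cell cycle list at 24 of 28 in KO livers.

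Kupffer cell, stellate cell and lymphoid markers were mostly higher in KO livers. Endothelial and cholangiocyte markers rose at a share near that of all genes tested, of which 19.7% rose and 16.6% fell against all controls. Summed Kupffer cell and macrophage markers were 736 to 1625 CPM in KO livers and 310 to 587 CPM in controls, and 17 of 17 rose. Stellate cell and fibrosis markers were 587 to 960 CPM against 257 to 339 CPM, with 13 of 14 higher, and lymphoid markers 24.7 to 71.3 CPM against 13.4 to 18.7 CPM, with 10 of 14 higher. Neutrophil markers overlapped (6.26 to 28.5 CPM and 3.75 to 13.2 CPM, 4 of 6 higher), as did endothelial markers (227 to 386 CPM and 202 to 254 CPM, 2 of 10 higher) and cholangiocyte markers (71.1 to 88.2 CPM and 49.96 to 80.6 CPM, 1 of 7 higher). Hepatocyte markers summed to 101000 to 115500 CPM in KO livers, 125900 to 137800 CPM in WT Cre and 154100 to 183800 CPM in MCS controls, and 11 of 16 fell, with 1 higher. Markers with under 10 counts over the 10 livers were not tested, which left 6 of 8 neutrophil and 7 of 8 cholangiocyte markers. The part of these cells in the p53 target gene values was not tested. Between the kinds of control 0 Kupffer, stellate, lymphoid, neutrophil, endothelial and cholangiocyte markers were called by edgeR (6 at an unadjusted p under 0.05, and 1 called by DESeq2), and 1 of 16 hepatocyte markers, Ahsg, was lower in WT Cre controls (-0.81, adjusted p = 0.0436).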

How the data were processed

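Poly(A) RNA-seq libraries of 10 mouse livers were made with a directional kit. Per the study's methods, the authors trimmed reads with Trim Galore, mapped them to mm10 with STAR, and HOMER gave counts for each gene. The submitters' processing notes also name HTSeq and Cufflinks without a role. The deposited counts are whole numbers per gene without normalization. The deposited FPKM values are fragments scaled to transcript length and library size, made by the authors with a tool that is not given in the sources used here, and blank FPKM cells were read as 0 (0 of them in the 34 members). The strand setting and the treatment of reads with several matches were not given either. All value columns were matched to a sample, by replicate number in KO livers and by library number in the controls.

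Genes with at least 10 counts over the 10 livers were kept, which left 22449 of 33924 with any count. The quasi-likelihood test of edgeR 4.0.16 (R 4.3.3; TMM, robust, two-sided) was run with 2 groups for KO against all controls, and with 3 groups that share a dispersion for the other comparisons. In the fit with 2 groups, a difference between the kinds of control counts as spread within the controls. P-values were adjusted by Benjamini-Hochberg over all genes tested. A gene was called at an adjusted p under 0.05. SE is the log2 fold change over the square root of F, and CPM is scaled to TMM-adjusted library size. The script was tested on simulated data. P-values measure the spread between these livers. For each pair of livers of a group, chi-square over its degrees of freedom was 10.3 to 96.7, where sampling noise alone gives about 1, so each liver counts as a sample.

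All 34 members are named. Values per liver are given for Trp53, Cdkn1a, Mdm2, each member called with a log2 fold change over 1 against all controls, and each called between the kinds of control. From each other list at most 6 genes were named, those written first or with the largest and smallest log2 fold change, and in addition any single gene that makes up a count. The members and lists were chosen with earlier results of these data known. Alternatives were DESeq2 1.42.0, limma-voom (limma 3.58.1), RLE, library size only, no filter on low counts, filterByExpr, limma on log2(FPKM + 1) and log2(FPKM + 0.1), a replicate block, and leaving out each liver in turn. The FPKM order without MCS control 3 was added after seeing the data. A gene of the wider p53 target list was counted with its list but is not reported here by name.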

Additional observations from a re-analysis of the deposited data

Results flagged for a closer look

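In the group of 4 KO livers, 3 of 34 members had a liver whose gap to the nearest other, divided by the range of the group, passed Dixon's 95% critical value, which chance exceeds in about 1 of 20 groups. All 3 concerned KO liver 1, the library with the fewest counts. Phlda3 was at 9.84 CPM in KO liver 1 and at 3.98 to 4.85 CPM in the other KO livers. Perp was at 125.2 CPM in KO liver 1 and at 93.6 to 95.5 CPM in the others. Apaf1 was at 4.95 CPM in KO liver 1 and at 6.41 to 6.66 CPM in the others. Summed Kupffer cell markers were also lowest in KO liver 1 among KO livers, at 736 CPM against 1190 to 1625 CPM, and their part in these values was not tested.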

How the results depend on the processing

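Against all controls, 8 of the 16 calls were kept under each of the 19 alternatives (Bax, Ei24, Gtse1, Pmaip1, Polk, Psrc1, Sesn2 and Trp53inp1), as were 6 of 18 against WT Cre controls, 15 of 18 against MCS controls and 2 of 5 between the controls. On leaving out livers in turn the number called was 10 (without KO liver 3) to 18 (without MCS control 3) against all controls, 7 (without WT Cre control 1) to 20 (without MCS control 3) against WT Cre, 15 to 21 against MCS controls and 2 to 7 between the controls. Against WT Cre controls it was 10 without WT Cre control 2 or 3 and 11 without KO liver 2 or 3. Over the fits with a liver left out, 16.7% to 22% of genes tested rose against all controls. Against WT Cre controls 10.5% to 19.5% rose and against MCS controls 12.3% to 20.9%, and 0.172% to 1.13% were higher between the controls. DESeq2 called 8 members between the controls in place of 5, and 1.4% of all genes tested as higher there in place of 0.441%. With filterByExpr, which kept 16053 genes, 24.9% of them rose against all controls in place of 19.7%. Between the controls 0.673% were then higher in place of 0.441%. With 3 livers a group, 1 liver could decide a call, and low members such as Psrc1 and Pmaip1, under 3 CPM, rest on few counts. The cause of these changes was not tested.

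With libraries scaled by size only, the median of all genes moved up by 0.175 against all, 0.11 against WT Cre and 0.245 against MCS controls and by 0.136 between the controls, and the share of calls that were higher against all controls went from 54.3% to 72.2%. It was 69.8% on log2(FPKM + 1) and 69.1% on log2(FPKM + 0.1). Between the controls that share went from 47.6% to 68.8%, 66.7% and 70.6%. Members under those scalings that had log2 fold changes near 0 changed sign. Against all controls these were Sesn1 (0.12 by size only, 0.093 and 0.12 on the FPKM scales), Rps27l (0.001, 0.069 and 0.07), Ercc5 (0.085, 0.10 and 0.13) and Rrm2b (0.061 and 0.14 on the FPKM scales). Against MCS controls they were Perp (0.009, 0.042 and 0.043) and Xpc (0.12, 0.14 and 0.17), and between the controls Trp53 (0.053, 0.11 and 0.12). Leaving out a liver turned Zmat3 (-0.035 and -0.037 without MCS control 1 and 2) and Ddb2 (-0.083 without KO liver 1) against all controls, and between the controls Cdkn1a (-0.19 without WT Cre control 2, -0.31 and -0.39 without MCS control 1 and 2), Btg2 (0.26 without MCS control 3) and Apaf1 (-0.008 without MCS control 2). None of these values was called. Over all livers left out in turn, the log2 fold change between the controls ran from -0.39 to 1.31 for Cdkn1a (called at 1.31, without MCS control 3), from -1.09 to 0.26 for Btg2 and from -0.008 to 0.43 for Apaf1.

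Replicate numbers were not taken to pair the livers, since deviations from the group means of same-numbered livers correlated at -0.039 to 0.111 in 9 pairs, with 1 pair over 0.1. As a hint the other way, 7 of 9 livers correlated best with their own number. With the replicate block, 12 members were called against all controls, 15 against WT Cre, 19 against MCS controls and 7 between the controls. Of all genes tested, 15.8%, 13.9% and 16% then rose in the comparisons of KO livers, in place of 19.7%, 15.3% and 17.3%. Between the controls 0.927% were higher, in place of 0.441%. Sesn1 changed sign against all controls with the block (0.001).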
